A study of Mus musculus and Acomys cahirinus with 84 samples.

Results

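The genes described here are 10 members of the BCL2 family: the survival members Bcl2, Bcl2l1 (the gene of BCL-XL), Bcl2l2 (BCL-W) and Mcl1, the effectors Bak1 and Bok, and the BH3-only death members Bid, Bad, Bcl2l11 (BIM) and Bmf. They were taken by symbol from both count tables and make up 10 of 56980 rows in the mouse table and 10 of 19818 rows in the Acomys cahirinus table. BCL2 family proteins decide at the mitochondrial outer membrane whether a cell releases cytochrome c and dies by apoptosis. Effectors such as BAK open the membrane, survival members hold the effectors and the BH3-only proteins, and BH3-only proteins sense stress and either block the survival members or activate the effectors. Cells that stop dividing after irradiation often live on, and survival members, BCL-XL among them, are known targets of drugs that kill such cells.

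Primary skin fibroblasts, the matrix-producing cells of connective tissue grown from skin, were studied from 3 populations: mice labelled C56BL6, wild mice, and Acomys cahirinus, the African spiny mouse. At 24 h the cells of each population had received no radiation, 10 Gy or 20 Gy of gamma radiation, and at 12 d cultures of the same 3 doses were sampled beside cultures that had been passaged without radiation. Each of the 21 groups had 4 libraries, 84 in all, made from polyadenylated RNA. The labels name no genotype, age or agent besides radiation and passage, and all groups share the culture of primary cells. The 24 h and 12 d libraries carry different batch labels, B1 and B2, which leaves batch and time confounded, so that their parts cannot be told apart, and the times were not tested against each other.

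The C56BL6 libraries held 26.65 to 39.82 M counts, the wild libraries 17.42 to 35.98 M and the A. cahirinus libraries 25.55 to 52.86 M. Each of the 10 fibroblast markers was present in every group, with a summed level of 11300 to 88300 CPM, the count scaled to library size by TMM. Lists for other cell types summed to at most 103 CPM in any library, except keratinocyte markers, which reached 934 CPM in C56BL6 libraries, and mural or muscle markers, which ranged from 534 to 2660 CPM in A. cahirinus and reached 2470 CPM in wild and 179 CPM in C56BL6 libraries. Over 350 genes that differ strongly between wild libraries, replicates 1 and 4 at 12 d had a correlation of 0.98, whereas the 24 h libraries of these numbers had 0.16. The 12 d and 24 h libraries of wild replicate 1 had a correlation of 0.08, and those of replicate 4 had 0.9. Between the 12 d libraries of replicate 1 and the 24 h libraries of replicate 4 the correlation was 0.88. Over 92 such genes in C56BL6, replicates 3 and 4 had 0.98 at 12 d and 0.95 at 24 h, with 0.72 between the times for each of them. Whether the 12 d libraries labelled wild replicate 1 come from another animal than those of replicate 4 was not tested. The wild fits at 12 d with no block were therefore also run with the counts of these numbers summed into 1 sample. Values of the summed fits are given where a call changed. Fits with a replicate block treat these numbers as separate. The wild 10 Gy library of replicate 1 at 24 h was the shallowest, at 17.42 M counts and 17843 genes detected. In bulk RNA, fewer cells of a type and less RNA per cell cannot be told apart.

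Reads were counted without regard to strand, so a member whose exons share bases with another gene is measured with less certainty. Reads on shared bases are left uncounted, while levels per kilobase use the full gene length, so such levels can be too low. Among mouse genes, 61.5% of the exon bases of Bad, 25.5% of those of Bak1, 17.7% of those of Bid and 13.3% of those of Bcl2l2 are shared with other genes. In A. cahirinus, 34.8% of the exon bases of Bad are shared, with Gpr137. The exons of Bcl2l1, Bok and Bmf share no base with another gene in either table.

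Levels of different genes were compared per kilobase of gene length. In untreated cells at 24 h, Mcl1 had the highest mean level of the family in every population: 47.96 ± 3.50 CPM per kb (SD, n = 4) in C56BL6, 41.2 ± 6.02 in wild and 34.65 ± 4.76 in A. cahirinus cells. Mcl1 encodes a short-lived survival protein. Bok followed in the mouse cells, at 31.2 ± 2.75 CPM per kb in C56BL6 and 31.6 ± 10.6 in wild cells, where its range overlapped that of Mcl1. Bak1, the effector that sits in the mitochondrial membrane, was at 24.7 ± 1.37, 28.04 ± 4.57 and 21.9 ± 1.63 CPM per kb, and Bcl2l1 at 23.5 ± 2.91, 18.5 ± 4.18 and 18.4 ± 0.560. The ranges of Bak1 and Bcl2l1 overlapped in C56BL6 but not in the other populations. Bcl2, the founding member, had 1.24 ± 0.171 CPM per kb in C56BL6, 1.004 ± 0.825 in wild and 0.0777 ± 0.0269 in A. cahirinus cells. In A. cahirinus the gene had 8 to 45 counts in a library, which limits the precision of all its values there. Bmf, a BH3-only protein bound to the cytoskeleton in healthy attached cells, was lowest in the untreated mouse cells at 24 h, at 0.296 ± 0.0989 and 0.319 ± 0.125 CPM per kb, and second lowest after Bcl2 in A. cahirinus, at 0.819 ± 0.206. At 12 d the untreated level of Bmf was 5.77 ± 2.29, 4.28 ± 1.68 and 2.68 ± 0.791 CPM per kb, in the range of Bad in both mouse populations. Because each species was counted on its own annotation, a level is not compared between species.

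**Figure D1:**
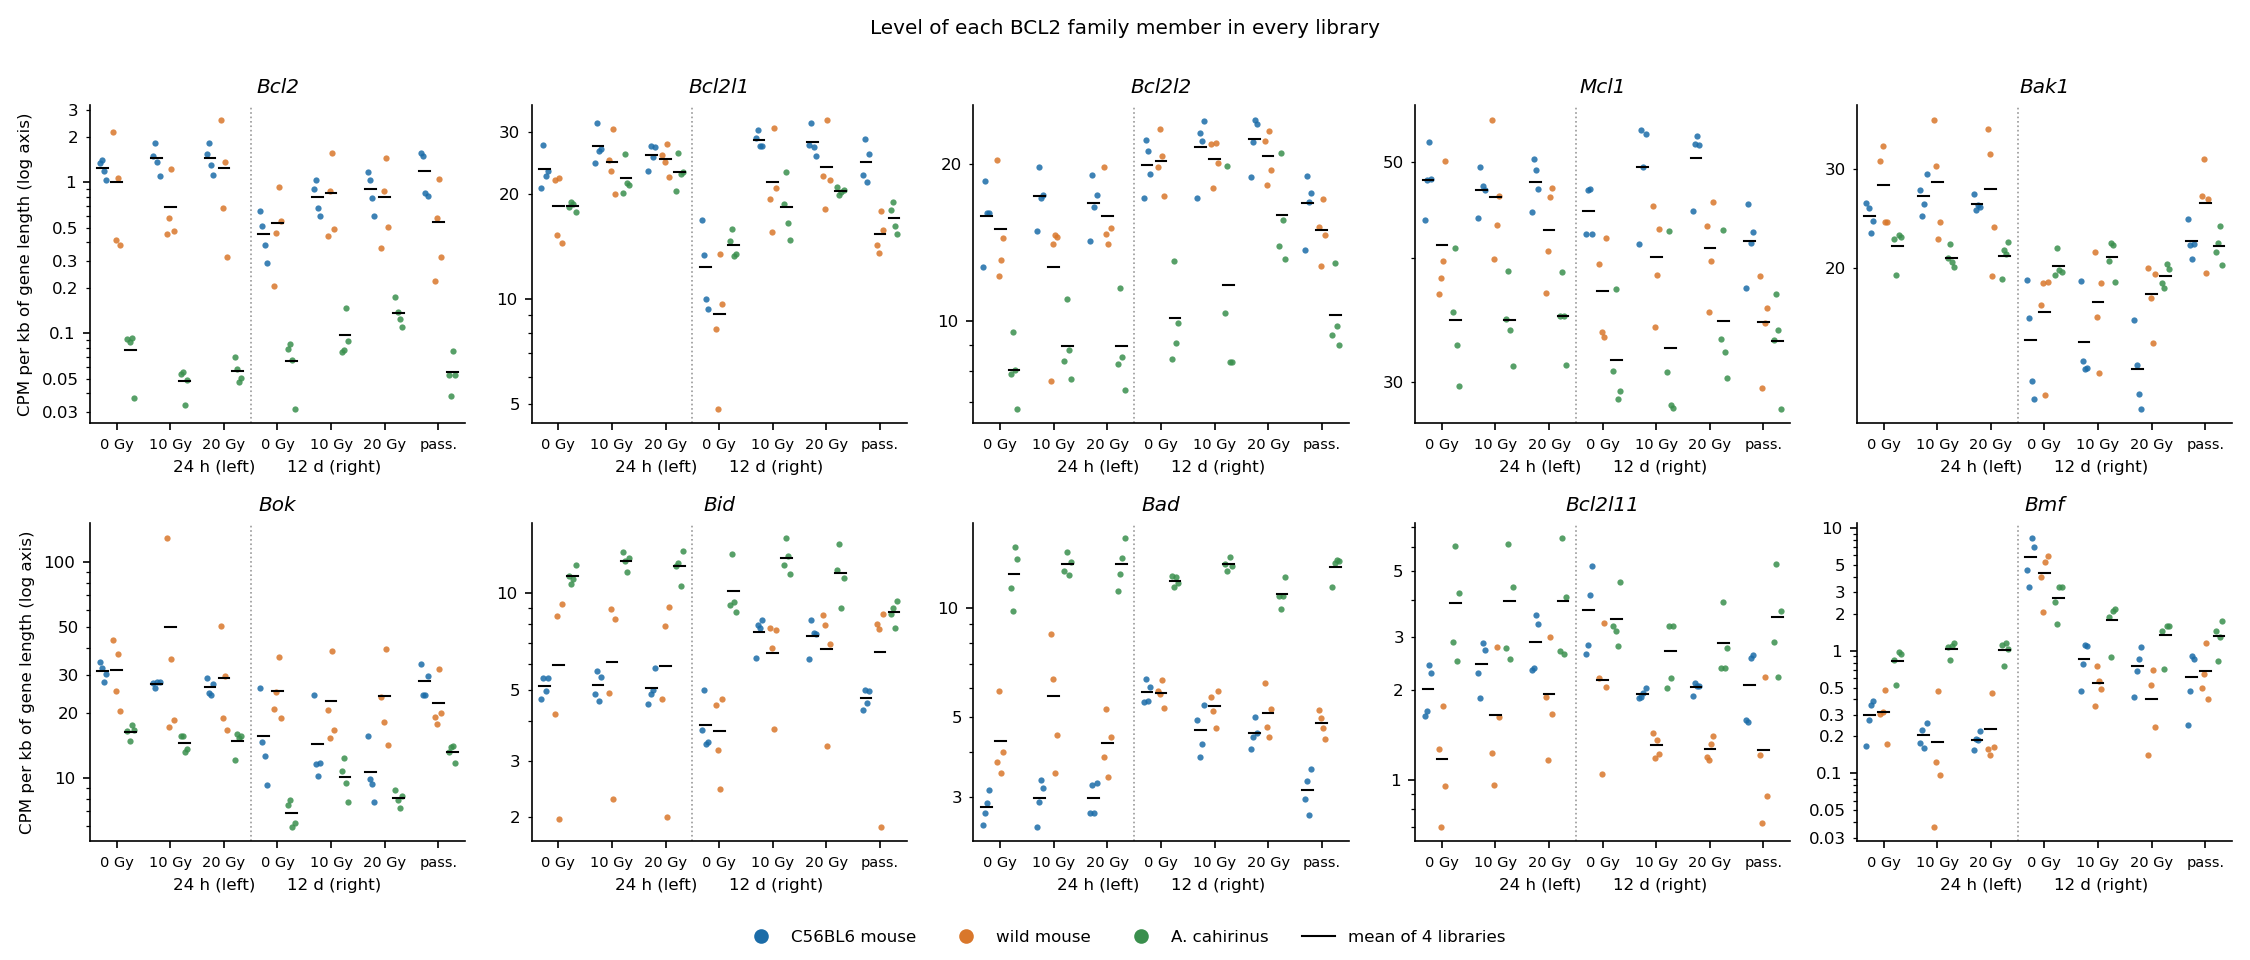
Level of each of the 10 members in all 84 libraries, in CPM per kb of gene length on a log axis; points are libraries, colours are populations and black lines are means of 4 libraries, with 24 h groups left of the dotted line and 12 d groups right of it. Mcl1 stays near the top in every group, and Bmf is highest in the untreated 12 d groups (means of 5.77, 4.28 and 2.68 CPM per kb).

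At 12 d the members were set against 2 unirradiated references, the untreated cultures and the untreated passaged cultures. Against untreated cultures, 20 Gy changed 6 of 10 members in C56BL6 cells (Bcl2, Bcl2l1 and Bid higher, Bad, Bcl2l11 and Bmf lower) and 4 of 10 in A. cahirinus (Bcl2, Bcl2l1 and Bcl2l2 higher, Bmf lower). In these fits 26.5% of 15119 genes and 31.8% of 13462 genes passed the same threshold, an adjusted p under 0.05 by the edgeR quasi-likelihood test. In wild cells no member passed by edgeR, where 0.0694% of 14399 genes did. There 4 of 10 members had an unadjusted p under 0.05, beside 1984 of 14399 genes. The Wald test of DESeq2 called 2 members. For DESeq2 and for fits that leave out a replicate, no share of all genes is given, so their counts are no result about the members. Libraries of a population that share a replicate number carry the same animal code in their names, and a fit with that number as a block called 8 members in C56BL6, where 47.5% of genes passed, 3 in wild, where 15.4% did, and 4 in A. cahirinus, where 49.2% did. The median log2 fold change of the members was 0.01 in C56BL6, 0.11 in wild and 0.18 in A. cahirinus cells, beside -0.01, -0.01 and 0.00 over all genes tested. In C56BL6 cells, leaving out replicate 2, 3 or 4 left 3 calls each: the adjusted p became 0.067 to 0.162 for Bcl2, 0.0805 to 0.158 for Bad and 0.0586 to 0.124 for Bcl2l11 by edgeR, while Bcl2l1, Bid and Bmf passed each time. In A. cahirinus, leaving out replicate 1, 3 or 4 left only Bcl2l1, with an edgeR adjusted p of 0.0737 to 0.159 for Bcl2, 0.0675 to 0.160 for Bcl2l2 and 0.125 to 0.133 for Bmf.

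Passage was tested in the same way. Against the untreated cultures, the passaged ones differed in 7 of 10 members in C56BL6, 1 in wild and 2 in A. cahirinus cells, beside 49.6%, 10.7% and 25.8% of all genes tested by edgeR. With the replicate block the counts were 8, 5 and 3, beside 60.1%, 31.9% and 49.5% of genes. The untreated libraries are shared by both comparisons, so their values are given side by side and their likeness is no result. Markers of dividing cells differed between these groups: the sum of the 10 markers was 63.4 to 330 CPM in untreated, 36 to 90.1 CPM in 20 Gy and 687 to 940 CPM in passaged C56BL6 cultures at 12 d. The corresponding sums were 33.4 to 319, 36.1 to 132 and 452 to 888 CPM in wild and 295 to 403, 52.5 to 63 and 390 to 749 CPM in A. cahirinus cultures. The summed fibroblast markers were 30000 to 49900 CPM in untreated C56BL6 cultures, 11300 to 15300 at 20 Gy and 17700 to 26200 after passage. The part of either marker list in the results on the members was not tested.

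**Figure D2:**
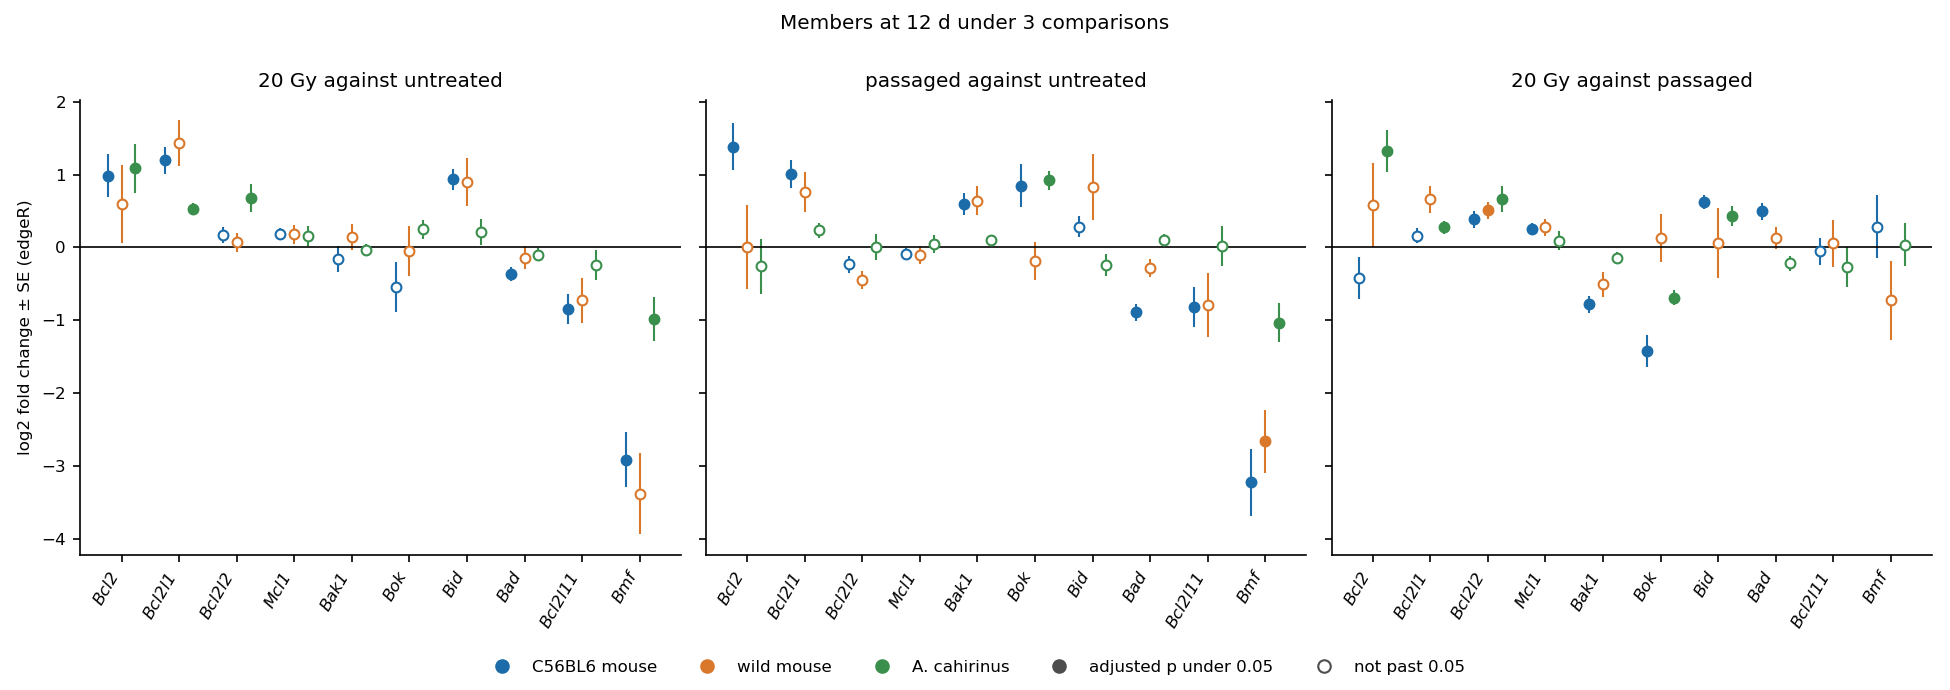
log2 fold change of each member at 12 d, with its standard error, for 20 Gy against untreated, passaged against untreated and 20 Gy against passaged; filled points have an edgeR adjusted p under 0.05. Bmf lies between -3.38 and -0.99 in the first panel and between -3.23 and -1.04 in the second, and its 3 points in the third panel are open.

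Among the survival members, Bcl2l1 and Mcl1 lay higher after 20 Gy than in untreated cultures in 4 of 4 numbered pairs of each population at 12 d. No share of all genes is given for such pairs, and Mcl1 passed in none of the populations by edgeR with no block. The product of Bcl2l1, BCL-XL, guards the mitochondrial membrane. In C56BL6 cells at 12 d Bcl2l1 had 77.0, 61.3, 45.9 and 42.99 CPM in the untreated libraries and 127, 146, 125 and 118 CPM at 20 Gy. Every irradiated library lay above every untreated one, and the gene rose 2.29-fold (log2 fold change 1.20 ± 0.18 SE, edgeR adjusted p = 0.00364). Passaged libraries had 104, 131, 98.9 and 119 CPM, also above all untreated ones, a rise of 1.01 ± 0.19 on the log2 scale (edgeR adjusted p = 0.00332). In A. cahirinus the untreated libraries had 48.2, 52.3, 43.6 and 44.2 CPM and the 20 Gy libraries 68.7, 65.3, 66.6 and 67.3. These groups did not overlap either, and Bcl2l1 rose 1.44-fold (0.53 ± 0.08, edgeR adjusted p = 0.00199). The A. cahirinus passaged libraries had 59.1, 62.3, 53.1 and 50.5 CPM, which overlapped the untreated ones (0.24 ± 0.10, edgeR adjusted p = 0.123, and 0.00596 with the block). Wild cells had 37.8, 22.3, 61.6 and 44.2 CPM untreated and 103, 82.9, 149 and 100.5 CPM at 20 Gy. Each of the wild 20 Gy libraries was above all untreated ones (1.43 ± 0.31, edgeR adjusted p = 0.117, and 0.0029 with the block). The passaged wild libraries gave 0.76 ± 0.28 (edgeR adjusted p = 0.115, 0.0165 with the block and 0.0499 without replicate 3). In A. cahirinus the difference with passage passed without replicate 2 (edgeR adjusted p = 0.0423).

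Bcl2 was scarce, and at 12 d it passed at 20 Gy in C56BL6 and A. cahirinus cells but not in wild cells. In C56BL6 cells it had 5.90, 4.69, 3.50 and 2.68 CPM untreated, 10.8, 9.53, 7.17 and 5.43 CPM at 20 Gy and 14.3, 13.7, 7.77 and 7.40 CPM after passage. The value was higher in 4 of 4 numbered pairs both times. At 20 Gy the gene rose by 0.99 ± 0.30 (edgeR adjusted p = 0.0427, and 0.067 to 0.162 without replicate 2, 3 or 4). With passage it rose by 1.38 ± 0.32 (edgeR adjusted p = 0.00849, and 0.0535 without replicate 2). In A. cahirinus, 20 Gy libraries had 1.28, 1.01, 0.905 and 0.809 CPM against 0.576, 0.615, 0.483 and 0.231 CPM untreated. That rise of 1.09 ± 0.34 (edgeR adjusted p = 0.0381) rests on 29 to 41 counts a library at 20 Gy and 8 to 21 in untreated cells. Without replicate 1, 3 or 4 the edgeR adjusted p of that rise was 0.0737 to 0.159. Wild libraries spread from 1.87 to 8.53 CPM untreated and from 3.36 to 13.2 CPM at 20 Gy and overlapped (0.60 ± 0.54, edgeR adjusted p = 0.696).

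Bcl2l2 encodes the survival protein BCL-W. In A. cahirinus, Bcl2l2 had 38.5, 59.2, 41.3 and 45.1 CPM untreated and 63.4, 95.7, 71.1 and 59.8 CPM at 20 Gy. All 20 Gy libraries lay above all untreated ones, and the gene rose by 0.68 ± 0.19 on the log2 scale (edgeR adjusted p = 0.0252, and 0.0569 with all groups of the population in 1 fit). In C56BL6 and wild cells the same contrast gave 0.18 ± 0.11 and 0.07 ± 0.13 (edgeR adjusted p = 0.264 and 0.879). With passage Bcl2l2 gave -0.23 ± 0.12 in C56BL6 cells (edgeR adjusted p = 0.130, and 0.0163 with the block) and -0.45 ± 0.13 in wild cells (edgeR adjusted p = 0.0645, 0.0422 with the block and 0.0235 with all groups of the population in 1 fit). DESeq2 called the wild difference too (adjusted p = 0.0182). Mcl1 had 145, 160, 161 and 145 CPM in untreated and 152, 178, 181 and 178 CPM in 20 Gy C56BL6 libraries, higher in 4 of 4 numbered pairs but with overlapping ranges (0.19 ± 0.08, edgeR adjusted p = 0.106, 0.0376 with the block and 0.0415 without replicate 1). In wild and A. cahirinus cells the Mcl1 differences were 0.18 ± 0.13 and 0.15 ± 0.14 (edgeR adjusted p = 0.607 and 0.424).

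The makeup of the survival members can be read from their shares of the summed CPM per kb. Bcl2l1 made up 16 ± 4.17% (SD, n = 4) of the sum in untreated C56BL6 cultures at 12 d, 27.7 ± 2.53% at 20 Gy and 29.3 ± 1.71% after passage. In wild cells the shares were 13.4 ± 4.92%, 27.3 ± 4.21% and 23.5 ± 1.82%, and in A. cahirinus cells 25.6 ± 1.29%, 29 ± 3.65% and 28.3 ± 1.29%. Mcl1 held 47.6 to 57.7% of the sum on average in all 21 groups. Bcl2 held at most 1.58% on average in any group.

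**Figure D3:**
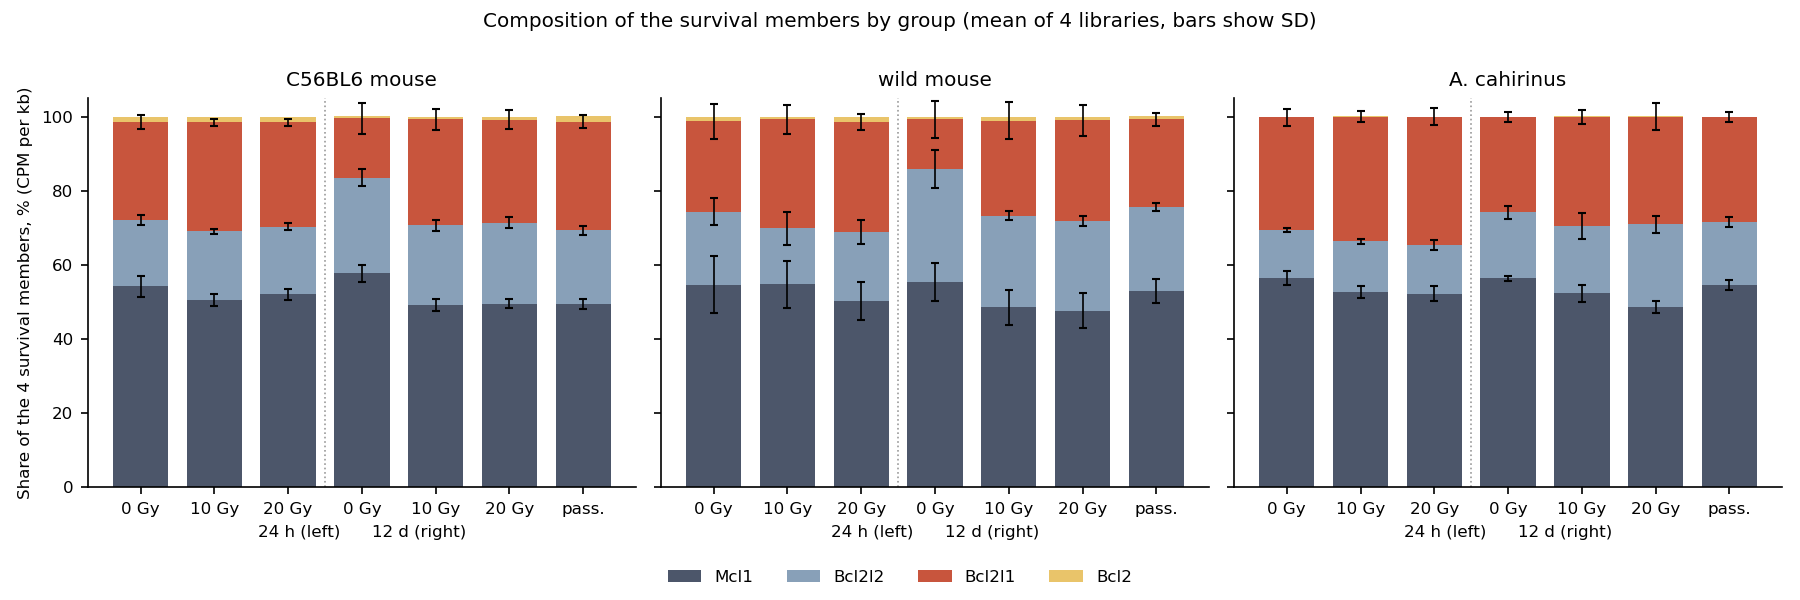
Mean share of Mcl1, Bcl2l2, Bcl2l1 and Bcl2 in the summed CPM per kb of these genes, in percent, by population and group; error bars are the SD over 4 libraries, drawn at the top of the segment they belong to. The Bcl2l1 segment is smallest in the untreated mouse cultures at 12 d, at 16% in C56BL6 and 13.4% in wild cells.

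Neither effector passed at 20 Gy against untreated cultures, and both passed with passage in C56BL6 cells. Bak1 had 45.8, 39.2, 30.4 and 28.2 CPM in untreated C56BL6 cultures at 12 d, 38.96, 32.4, 28.8 and 27.1 CPM at 20 Gy and 58.9, 52.98, 50 and 53.2 CPM after passage. Untreated and 20 Gy libraries overlapped (-0.16 ± 0.18, edgeR adjusted p = 0.538), and the passaged libraries lay above both groups. The rise with passage was 0.60 ± 0.15 (edgeR adjusted p = 0.0136, and 0.0537, 0.0655 and 0.0588 without replicate 2, 3 and 4). Wild Bak1 gave 0.64 ± 0.19 with passage (edgeR adjusted p = 0.0713, 0.00373 with the block and 0.0182 without replicate 3), and A. cahirinus Bak1 0.10 ± 0.08 (edgeR adjusted p = 0.383).

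Bok encodes an effector that is normally kept low by degradation of its protein. In A. cahirinus at 12 d Bok had 11.7, 12.2, 9.21 and 9.60 CPM untreated, 13.7, 12.2, 11.2 and 12.8 CPM at 20 Gy and 20.3, 21.6, 21.8 and 18.1 CPM after passage. The passaged libraries stood above all others of the species at 12 d that received 0 or 20 Gy, and the gene rose 1.89-fold with passage (0.92 ± 0.13, edgeR adjusted p = 0.00233). In C56BL6 cells Bok had 48.2, 26.9, 23.2 and 17.1 CPM untreated and 62.2, 44.6, 44.4 and 54.7 CPM after passage. Replicate 1 was highest in both groups, so that the groups overlapped although the value was higher in 4 of 4 pairs (0.85 ± 0.30, edgeR adjusted p = 0.0438, and 0.131, 0.139 and 0.150 without replicate 2, 3 and 4). At 20 Gy C56BL6 Bok had 28.8, 18.2, 17.2 and 14.2 CPM, lower than untreated in 4 of 4 pairs (-0.54 ± 0.34, edgeR adjusted p = 0.266, and 0.00538 with the block). Wild Bok differed by -0.05 ± 0.34 at 20 Gy and -0.19 ± 0.26 with passage (edgeR adjusted p = 0.976 and 0.688).

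Bmf and Bcl2l11 are BH3-only members known as targets of FOXO transcription factors. Their sequences before the transcription start are shown because both genes fell in C56BL6 cells at 12 d, as did Bad, a BH3-only member whose sequence is not shown. Each run below is 250 bases of the reference genome, GRCm39, ending 1 base before the start of the canonical transcript in GENCODE, written along the gene's strand. The Bmf window is chr2:118380178-118380427 on the minus strand, and the Bcl2l11 window is chr2:127967708-127967957 on the plus strand, where it overlaps an exon of Gm75592. Capitals mark matches on either strand to GTAAACA (FOXO), TGANTCA (AP-1), CACGTG (E-box), TGACGTCA (CRE) or GGGCGG (GC box), and no match overlaps another.
Bmf: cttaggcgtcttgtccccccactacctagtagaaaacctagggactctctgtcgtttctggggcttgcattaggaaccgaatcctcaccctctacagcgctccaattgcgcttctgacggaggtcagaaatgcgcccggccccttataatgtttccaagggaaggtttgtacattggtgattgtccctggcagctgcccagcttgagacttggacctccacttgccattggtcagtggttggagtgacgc
Bcl2l11: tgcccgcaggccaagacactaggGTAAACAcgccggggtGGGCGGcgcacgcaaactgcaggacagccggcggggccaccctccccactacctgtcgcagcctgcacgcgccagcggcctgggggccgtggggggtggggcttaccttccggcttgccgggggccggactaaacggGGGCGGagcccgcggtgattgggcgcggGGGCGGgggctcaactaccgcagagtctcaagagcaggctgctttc
The Bcl2l11 window holds 1 FOXO match, 227 to 221 bases before the start, and 3 GC boxes, and the Bmf window holds no match to any of the 5 motifs. Among 21770 windows of protein-coding genes, 2.72% held a FOXO match, 6.17% an AP-1 match, 6.26% an E-box, 1.69% a CRE and 36.3% a GC box. A match is a description of letters in this window and not a measured site.

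In both mouse populations Bmf had the largest differences of the family at 12 d from untreated cultures. In C56BL6 cells it had 23.7, 17.3, 43.8 and 36.5 CPM in untreated libraries, 2.20, 3.60, 4.47 and 5.63 CPM at 20 Gy and 1.29, 2.45, 4.71 and 4.45 CPM after passage. The lowest untreated library was above the highest of either other group. Bmf fell by 2.92 ± 0.38 on the log2 scale at 20 Gy (edgeR adjusted p = 0.0021) and by 3.23 ± 0.47 with passage (edgeR adjusted p = 0.00109). Wild libraries had 20.8, 10.8, 27.6 and 30.8 CPM untreated, 0.738, 2.77, 3.64 and 1.27 CPM at 20 Gy and 2.60, 3.41, 6.09 and 2.13 CPM after passage. The wild groups did not overlap the untreated one, with a difference of -3.38 ± 0.55 at 20 Gy (edgeR adjusted p = 0.0722, and 0.00819 with the block). Wild Bmf fell by 2.66 ± 0.43 with passage (edgeR adjusted p = 0.0158), a call lost without replicate 1 (0.165), without replicate 4 (0.0989) or with both summed (0.137). In A. cahirinus the values were 13.9, 9.14, 18.4 and 18.4 CPM untreated, 8.10, 3.98, 8.84 and 8.84 CPM at 20 Gy and 8.08, 4.61, 7.19 and 9.65 CPM after passage. Replicate 2 was the lowest in each of these groups, the 20 Gy libraries lay below all untreated ones, and the passaged libraries overlapped them. Bmf fell by 0.99 ± 0.30 at 20 Gy (edgeR adjusted p = 0.0384) and by 1.04 ± 0.27 with passage (edgeR adjusted p = 0.024, and 0.112, 0.147 and 0.0703 without replicate 1, 3 and 4). At 24 h untreated Bmf had been 0.878 to 2.02 CPM in C56BL6, 0.912 to 2.52 in wild and 2.93 to 5.48 in A. cahirinus libraries.

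**Figure D4:**
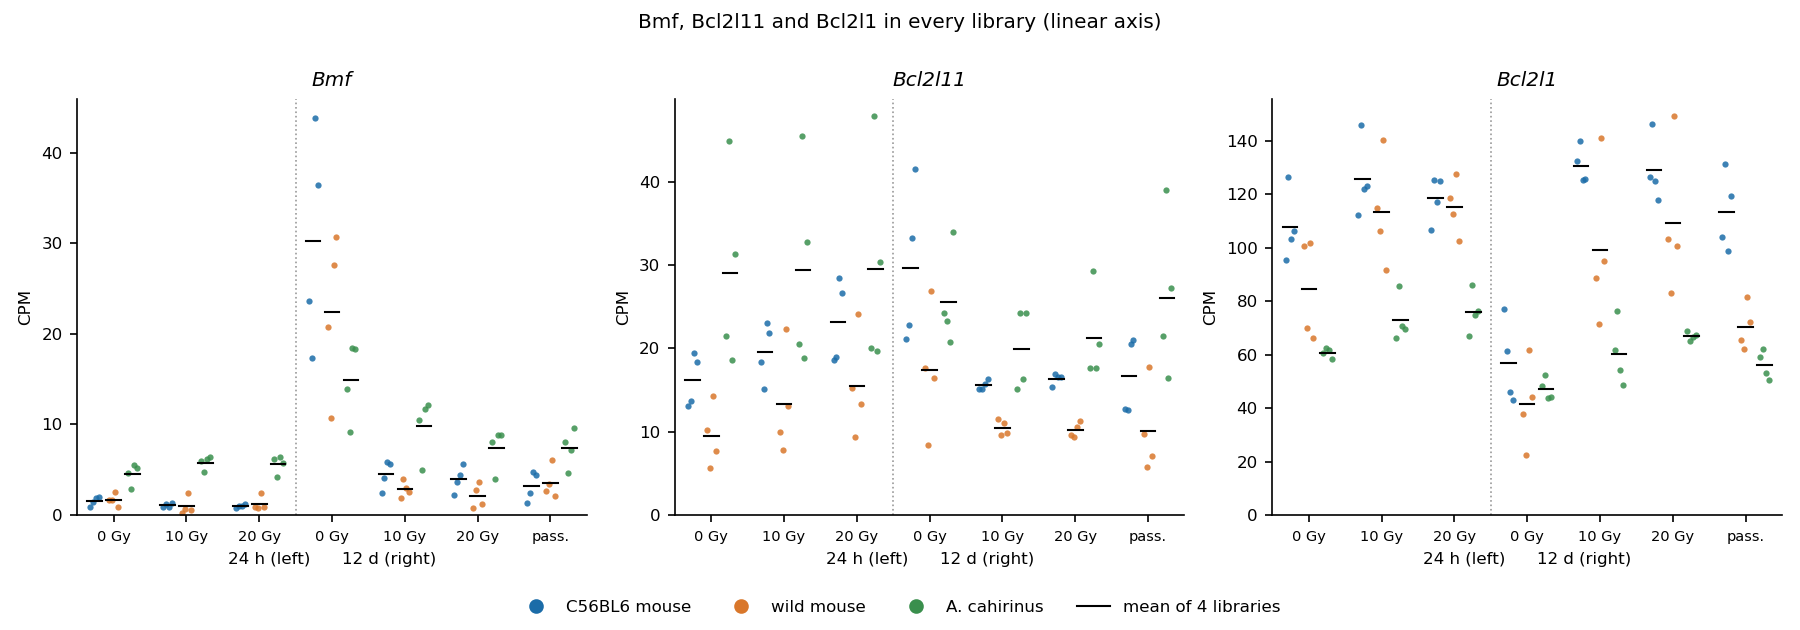
CPM of Bmf, Bcl2l11 and Bcl2l1 in every library on linear axes; points are libraries, colours are populations and black lines are means of 4 libraries. Untreated 12 d libraries hold the highest Bmf values of each mouse population (10.8 to 43.8 CPM) and low Bcl2l1 values (22.3 to 77.0 CPM).

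Bcl2l11 encodes BIM, which can both block survival members and activate effectors. In C56BL6 cells at 12 d it had 21.2, 22.8, 33.2 and 41.5 CPM untreated, 15.3, 16.97, 16.6 and 16.6 CPM at 20 Gy and 12.8, 12.6, 20.5 and 21.03 CPM after passage. The untreated libraries lay above both other groups, and the falls were 0.85 ± 0.21 at 20 Gy (edgeR adjusted p = 0.0208) and 0.82 ± 0.27 with passage (edgeR adjusted p = 0.0355, and 0.0845, 0.091 and 0.0817 without replicate 2, 3 and 4). The 20 Gy libraries covered a range of 15.3 to 16.97 CPM, narrower than the 12.6 to 21.03 CPM of the passaged ones. Wild Bcl2l11 gave -0.73 ± 0.31 at 20 Gy (edgeR adjusted p = 0.355) and -0.79 ± 0.44 with passage (edgeR adjusted p = 0.279, and 0.00941 with the block). In A. cahirinus it gave -0.24 ± 0.21 and 0.02 ± 0.27 (edgeR adjusted p = 0.403 and 0.972).

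Bid, whose protein links death receptors to mitochondria after cleavage by caspase-8, was higher after 20 Gy in C56BL6 cells at 12 d. It had 13.3, 17.7, 12.0 and 12.2 CPM untreated, 22.1, 29.4, 26.7 and 26.4 CPM at 20 Gy and 15.4, 17.7, 16.1 and 17.6 CPM after passage. The 20 Gy libraries lay above every unirradiated one at 12 d, with a rise of 0.94 ± 0.15 over untreated cells (edgeR adjusted p = 0.00408). Wild cells had 15.9, 11.5, 8.67 and 16.6 CPM untreated and 30.4, 28.3, 11.9 and 24.7 CPM at 20 Gy. Replicate 3 was the lowest of the wild libraries in every group of the study, and its 20 Gy value lay within the untreated range (0.90 ± 0.33, edgeR adjusted p = 0.288, and 0.0156 with the block). In A. cahirinus the difference was 0.21 ± 0.18 (edgeR adjusted p = 0.402). With passage Bid passed only in fits that left out 1 library a group, without replicate 2 in C56BL6 (0.40, edgeR adjusted p = 0.0384) and without replicate 3 in wild cells (0.98, edgeR adjusted p = 0.0183).

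Bad, which is held in check by phosphorylation downstream of growth factors, went the other way in C56BL6 cells. It had 14.1, 16.2, 14.2 and 15.5 CPM untreated, 10.4, 11.2, 12.8 and 11.6 CPM at 20 Gy and 7.59, 8.49, 6.83 and 9.18 CPM after passage. The 3 groups did not overlap, and Bad fell by 0.37 ± 0.10 at 20 Gy (edgeR adjusted p = 0.028) and by 0.89 ± 0.12 with passage (edgeR adjusted p = 0.00079). Wild and A. cahirinus cells gave -0.14 ± 0.16 and -0.10 ± 0.09 at 20 Gy (edgeR adjusted p = 0.769 and 0.402). These values carry the shared exon bases given above.

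The passaged cultures served as the second reference. At 20 Gy, 6 members differed from passaged C56BL6 cells, 1 from wild and 5 from A. cahirinus cells, beside 41.6%, 10.5% and 42.5% of all genes by edgeR. With the block there were 7 in C56BL6, beside 56.1% of genes, 6 in wild cells, beside 38%, and 5 in A. cahirinus cells, beside 56%. Bmf did not pass in any population (0.28 ± 0.43, -0.73 ± 0.54 and 0.04 ± 0.30, edgeR adjusted p = 0.631, 0.441 and 0.929, and 0.0389 in wild cells with the block), nor did Bcl2l11 (-0.05 ± 0.19, 0.05 ± 0.33 and -0.27 ± 0.28, edgeR adjusted p = 0.842, 0.940 and 0.461). Bok fell by 1.42 ± 0.22 in C56BL6 (edgeR adjusted p = 0.0015) and by 0.69 ± 0.10 in A. cahirinus cells (edgeR adjusted p = 0.00133). Bak1 fell by 0.78 ± 0.12 in C56BL6 cells (edgeR adjusted p = 0.0012). Bid rose by 0.62 ± 0.10 in C56BL6 (edgeR adjusted p = 0.00183) and by 0.43 ± 0.14 in A. cahirinus cells (edgeR adjusted p = 0.038, and 0.194 and 0.0933 without replicate 1 and 4). Bad rose by 0.50 ± 0.12 in C56BL6 cells (edgeR adjusted p = 0.0114, and 0.0538 and 0.0879 without replicate 2 and 3), opposite to its direction against untreated cultures.

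The survival members were compared with passaged cultures too. Bcl2l2 passed in all 3 populations, with 0.38 ± 0.12 in C56BL6, 0.51 ± 0.12 in wild and 0.66 ± 0.18 in A. cahirinus cells (edgeR adjusted p = 0.0302, 0.0362 and 0.0181). It lost the call when single replicates were left out, with an edgeR adjusted p of 0.064, 0.143 and 0.118 without replicate 2, 3 and 4 in C56BL6, 0.202, 0.0758 and 0.179 without replicate 1, 2 and 4 in wild, and 0.098, 0.0994 and 0.0509 without replicate 1, 3 and 4 in A. cahirinus cells, where it was 0.0523 with all groups in 1 fit. Summing wild replicates 1 and 4 gave 0.49 with an edgeR adjusted p of 0.177. Bcl2l1 rose by 0.28 ± 0.09 in A. cahirinus cells (edgeR adjusted p = 0.0325, 0.0802 with all groups in 1 fit, and 0.158 to 0.160 without replicate 1, 3 or 4) and gave 0.66 ± 0.18 in wild (edgeR adjusted p = 0.0582, and 0.00226 with the block) and 0.16 ± 0.10 in C56BL6 cells (edgeR adjusted p = 0.245). Mcl1 rose by 0.25 ± 0.08 in C56BL6 cells (edgeR adjusted p = 0.0403, and 0.0944, 0.184 and 0.151 without replicate 2, 3 and 4). Bcl2 rose by 1.33 ± 0.29 in A. cahirinus cells (edgeR adjusted p = 0.00706, and 0.0651 without replicate 1). In C56BL6 cells Bcl2 was lower at 20 Gy than after passage in 4 of 4 pairs (-0.42 ± 0.29, edgeR adjusted p = 0.278, and 0.0117 with the block). The block also called Bcl2 (0.62 ± 0.14), Mcl1 (0.27 ± 0.08) and Bak1 (-0.50 ± 0.10) in wild cells (edgeR adjusted p = 0.00954, 0.0245 and 0.00598). Without replicate 3, wild Bcl2l1 and Bak1 passed with no block (edgeR adjusted p = 0.0373 and 0.027).

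The lower dose was compared with untreated cultures as well. At 12 d, 10 Gy changed 4 members in C56BL6, 1 in wild and 0 in A. cahirinus cells, beside 20.9%, 0.264% and 2.87% of genes by edgeR. In A. cahirinus 1 member had an unadjusted p under 0.05, beside 2880 of 13215 genes, and DESeq2 called 1 member. With the block the counts were 5, 3 and 4, beside 38.8%, 12.7% and 27.5% of genes. In C56BL6 cells Bcl2l1 rose by 1.22 ± 0.18, Bid rose by 0.98 ± 0.15, Bcl2l11 fell by 0.91 ± 0.21 and Bmf fell by 2.73 ± 0.37 (edgeR adjusted p = 0.00443, 0.00482, 0.0195 and 0.00358). Without replicate 3 only Bmf kept its call there, with an edgeR adjusted p of 0.0554 for Bcl2l1, 0.0642 for Bid and 0.142 for Bcl2l11, and Bcl2l11 lost its call without replicate 2 (0.0636) and 4 (0.0724) too. The block added Bcl2 in C56BL6 cells (0.85 ± 0.15, edgeR adjusted p = 0.0032, and 0.0282 with no block but without replicate 1) and Bcl2l1 (1.31 ± 0.12) and Bid (0.81 ± 0.11) in wild cells (edgeR adjusted p = 0.0021 and 0.00738). The wild Bmf libraries had 1.85, 3.95, 2.99 and 2.58 CPM at 10 Gy, all below the untreated ones, and the gene fell by 2.96 ± 0.38 (edgeR adjusted p = 0.0375). That call was lost without any of the replicates (edgeR adjusted p = 0.543, 0.0694, 0.0752 and 0.407 without replicate 1, 2, 3 and 4) and with replicates 1 and 4 summed (0.417). In A. cahirinus Bmf had 10.6, 4.96, 11.7 and 12.2 CPM at 10 Gy, which overlapped the untreated range (-0.60 ± 0.30, edgeR adjusted p = 0.283, and 0.00557 with the block). The other calls of the block in A. cahirinus were Bcl2l1 (0.35 ± 0.08), Bok (0.55 ± 0.10) and Bid (0.37 ± 0.07), with an edgeR adjusted p of 0.0211, 0.00699 and 0.0103. Without replicate 2 the test called Bid (0.0239) and Bmf (0.0399).

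Set directly against each other at 12 d, 20 and 10 Gy differed in 0 members in each population, beside 0%, 0% and 0.457% of genes by edgeR. The members with an unadjusted p under 0.05 numbered 0 in C56BL6, 0 in wild and 1 in A. cahirinus cells. Beside them stood 301 of 15463, 37 of 14770 and 1917 of 13564 genes. DESeq2 called 0 members in each. The block called 2 members in A. cahirinus cells, Bcl2l2 (0.53 ± 0.13, edgeR adjusted p = 0.0231) and Bmf (-0.38 ± 0.11, edgeR adjusted p = 0.0424), beside 17.9% of genes. Without replicate 2, Bcl2l2 passed with no block (0.67, edgeR adjusted p = 0.0122). Bcl2l2 had 47.2, 90.1, 37.9 and 37.9 CPM at 10 Gy and 63.4, 95.7, 71.1 and 59.8 CPM at 20 Gy, higher in 4 of 4 pairs.

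At 24 h after 20 Gy no member passed in any population by edgeR, where 0.0895% of genes passed in C56BL6, 0% in wild and 3.59% in A. cahirinus cells. The members with an unadjusted p under 0.05 numbered 3, 1 and 1, beside 1426 of 14526, 856 of 14473 and 2281 of 13146 genes. DESeq2 called 0, 0 and 1 members. The block called 3, 2 and 1 members, beside 17.6%, 12.5% and 24.1% of genes. Bcl2l11 had 13.1, 13.7, 19.5 and 18.3 CPM in untreated and 18.7, 18.95, 28.5 and 26.6 CPM in 20 Gy C56BL6 libraries. The value was higher in 4 of 4 pairs, and the groups overlapped, with replicates 3 and 4 above 1 and 2 in both (0.52 ± 0.19, edgeR adjusted p = 0.406, and 8.22e-05 with the block). Wild Bcl2l11 had 10.2, 5.63, 14.2 and 7.68 CPM untreated and 15.2, 9.37, 24.2 and 13.4 CPM at 20 Gy, again higher in 4 of 4 pairs (0.73 ± 0.37, edgeR adjusted p = 0.894, and 0.00199 with the block). In A. cahirinus the gene had 21.5, 44.8, 18.6 and 31.4 CPM untreated and 20.0, 47.9, 19.6 and 30.4 CPM at 20 Gy, higher in 2 of 4 pairs (0.05 ± 0.37, edgeR adjusted p = 0.972). Bcl2l1 was higher at 20 Gy in 4 of 4 pairs in wild (0.46 ± 0.17, edgeR adjusted p = 0.745, and 0.006 with the block) and A. cahirinus cells (0.35 ± 0.09, edgeR adjusted p = 0.0858, and 0.00387 with the block), and in 3 of 4 in C56BL6 cells (0.14 ± 0.09, edgeR adjusted p = 0.690). The other calls of the block were in C56BL6 cells, Bok at -0.24 ± 0.05 and Bmf at -0.64 ± 0.21 (edgeR adjusted p = 0.00561 and 0.0475). Bcl2, Bcl2l2, Mcl1, Bak1, Bid and Bad differed by -0.02 to 0.23 on the log2 scale in C56BL6, -0.01 to 0.31 in wild and -0.43 to 0.18 in A. cahirinus cells, with none called by edgeR, with or without the block.

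After 10 Gy at 24 h no member passed by edgeR either, beside 0.007% of genes in C56BL6, 0% in wild and 3.73% in A. cahirinus cells. Here 1, 0 and 2 members had an unadjusted p under 0.05, beside 1116 of 14280, 603 of 14412 and 2136 of 13083 genes. DESeq2 called none of the members in the 3 populations. The block called 2 in C56BL6 cells (Bcl2l1 and Bcl2l11), beside 11.5% of genes, and 4 in A. cahirinus cells (Bcl2l1, Bcl2l2, Bid and Bmf), beside 27.6%, each of them higher at 10 Gy. The wild 10 Gy library of replicate 1 had 239 CPM of Bok and 34.2 CPM of Bcl2l2, while the other 3 had 31.6 to 65.2 and 62.8 to 65.1 CPM. Without replicate 1 the wild count remained 0.

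Between populations, the response to 20 Gy at 12 d differed for 2 members, Bmf and Bcl2l1, in A. cahirinus against C56BL6 cells, beside 18.8% of 14101 genes by edgeR. The log2 fold change of Bmf was higher in A. cahirinus by 1.93 ± 0.49 (edgeR adjusted p = 0.0155), that is, the fall was smaller, and that of Bcl2l1 was lower (-0.67 ± 0.20, edgeR adjusted p = 0.0343). Neither kept its call in every fit that left out 1 replicate: the edgeR adjusted p for Bmf was 0.059, 0.121 and 0.0699 without replicate 1, 3 and 4, and for Bcl2l1 0.124, 0.172 and 0.116 without replicate 2, 3 and 4. The block called 5 members, adding Bcl2l2 (0.50 ± 0.11), Bok (0.75 ± 0.13) and Bid (-0.73 ± 0.14), with edgeR adjusted p of 0.00643, 0.00203 and 0.00322, beside 38% of genes. Without replicate 2, Bid passed with no block (edgeR adjusted p = 0.0106). Against wild cells A. cahirinus differed in 0 members by edgeR, beside 3.35% of genes. The unadjusted p was under 0.05 for 3 members, beside 2703 of 13888 genes, and DESeq2 called 1 member, Bmf. Without replicate 2 Bmf passed there (2.86, edgeR adjusted p = 0.0262). The block called 4 there, Bcl2l1, Bcl2l2, Bid and Bmf, beside 23.3% of genes. Wild and C56BL6 responses differed in 0 members, beside 0% of genes by edgeR, with 0 by DESeq2 and 0 unadjusted, beside 353 of 15914 genes. For Bmf that difference was -0.47 ± 0.65 and for Bcl2l1 0.23 ± 0.38 (edgeR adjusted p = 1 for both).

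At 24 h the same tests called no member by edgeR, beside 2.09% of genes for A. cahirinus against C56BL6 and 0% for each of the other 2 pairs of populations. The unadjusted p was under 0.05 for 1, 0 and 0 members, beside 1462 of 13589, 701 of 13584 and 253 of 15612 genes. DESeq2 called 0 members in each. The block called Bcl2l11 (-0.50 ± 0.09, edgeR adjusted p = 0.001) and Bmf (0.97 ± 0.22, edgeR adjusted p = 0.00607) in A. cahirinus against C56BL6, beside 16.8% of genes, and Bcl2l11 (-0.71 ± 0.12, edgeR adjusted p = 0.00219) against wild, beside 7.25%.

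Untreated wild and C56BL6 cells differed in 0 members at 24 h, beside 5.70% of genes by edgeR, and 0 at 12 d, beside 2.93%. The unadjusted p was under 0.05 for 2 members at 24 h, beside 3175 of 14317 genes. At 12 d it was for 1 member, beside 2174 of 14238 genes. DESeq2 called 0 both times. Bad at 24 h did not overlap, with 6.42 to 8.03 CPM in C56BL6 and 8.95 to 15.02 CPM in wild libraries (0.60 ± 0.20, edgeR adjusted p = 0.121). Mcl1 did not overlap at 12 d, with 144.5 to 160.5 CPM in C56BL6 and 113.7 to 143 CPM in wild libraries (-0.27 ± 0.11, edgeR adjusted p = 0.285).

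The other genes of the pathway fell into 3 lists, chosen with earlier results of these data known. Their counts at 12 d stand beside the 26.5% of all genes that passed in C56BL6 and the 31.8% in A. cahirinus cells, with medians over all genes of -0.01 and 0.00. Of 15 other BCL2 family genes, 7 were tested in C56BL6 cells at 12 d, where 1 rose and 2 fell at 20 Gy against untreated cultures, and 10 were tested in A. cahirinus, where 2 rose and 1 fell (median log2 fold change -0.14 and 0.24). Pmaip1, the p53-induced BH3-only gene of NOXA, rose by 2.38 ± 0.50 in C56BL6 and by 2.47 ± 0.34 in A. cahirinus cells (edgeR adjusted p = 0.0113 and 0.00139). Bnip3 and Bnip3l, mitochondrial genes known for their part in mitophagy, fell by 0.91 and 0.47 in C56BL6 cells (edgeR adjusted p = 0.0129 and 0.0359). In A. cahirinus Bcl2l15 rose by 1.21 and Bcl2l12 fell by 0.85 (edgeR adjusted p = 0.0198 and 0.00267). Among 24 genes of the apoptosis machinery, 3 rose and 6 fell in C56BL6 and 4 rose and 4 fell in A. cahirinus cells (medians of -0.08 in both). Casp2, an initiator caspase, fell by 0.78 and 0.93 (edgeR adjusted p = 0.00439 and 0.000805), Cflar, the caspase-8 inhibitor, rose by 0.83 in C56BL6 cells (edgeR adjusted p = 0.00221), and Casp12 fell by 1.22 there (edgeR adjusted p = 0.0331). Of 16 regulators of the members, 5 rose and 0 fell in C56BL6 and 5 rose and 2 fell in A. cahirinus cells (medians of 0.15 and 0.00). Dynll2, the dynein light chain that tethers BMF, rose by 0.68 and 1.05 (edgeR adjusted p = 0.00426 and 0.000638). Foxo1, a FOXO factor, rose by 0.71 in A. cahirinus cells (edgeR adjusted p = 0.0262). Wild cells had 0 calls in each list by edgeR, beside 0.0694% of all genes. With the block the wild calls were 2 of 7, 7 of 24 and 2 of 16 genes tested, beside 15.4% of all genes. Against passaged cells Pmaip1 rose at 20 Gy by 1.88 in C56BL6, 3.61 in wild and 2.67 in A. cahirinus cells (edgeR adjusted p = 0.00734, 0.00939 and 0.000341).

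The 2 genes most like each member were found by the mean over populations of the Pearson correlation of log2 CPM across the 28 libraries of a population, with each time centred, among 11996 genes. The libraries share animals, batch and depth, so these values are descriptions. Bmf was most like Zfp799 (0.83) and Pccb (0.82), Bcl2l1 most like Hmox1 (0.86) and Ereg (0.84), and Bid most like Slc43a2 (0.81) and Ccl7 (0.76). For Bcl2l2 the nearest were Tgoln1 (0.86) and Vps41 (0.84), for Bak1 Xpnpep1 (0.81) and Banf1 (0.77), and for Bok Fkbp1a (0.81) and Pfn1 (0.80). Bcl2 was nearest to Dock8 (0.77) and Mast2 (0.72), Bad to Uqcc3 (0.75) and Tmem256 (0.72), Mcl1 to Lyrm1 (0.72) and Mcfd2 (0.71), and Bcl2l11 to Ccdc159 and Egfr (0.65 each). Among the members themselves the highest value was 0.54, between Bcl2l2 and Mcl1, and the lowest was -0.63, between Bcl2l1 and Bmf.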

How the data were processed

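RNA-seq libraries were deposited as 2 tables of read counts per gene, 1 for both mouse populations and 1 for A. cahirinus. Per the file headers the authors made these counts with featureCounts 2.0.3, with its option for both ends mapped set. No option for strand, overlapping genes or paired fragments was set, although the labels give a stranded mRNA library. Antisense reads are therefore not separated, and reads on exons of different genes are assigned to none of them. The mouse genes are those of GRCm39 with Ensembl annotation 108. Trim Galore and HISAT2 are named in the submitters' processing notes, without versions. The deposited gene length, an other value in bases, served only for levels per kilobase. The tables hold 56980 and 19818 genes, 0 count columns were left unused, and 56236 mouse IDs had a symbol.

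Members and gene lists were chosen with earlier results of these data known. The members are named in every comparison where they or their libraries stood apart, and otherwise covered by counts or ranges; other genes are named where they passed and were among the 3 largest changes of their list, and 2 genes are named as most like each member. One gene that the rule names is not reported here. Each comparison was fitted on the libraries of its groups with edgeR 4.0.16 (R 4.3.3, limma 3.58.1): TMM scaling, filterByExpr, quasi-likelihood F test and Benjamini-Hochberg adjustment over all genes tested, with a threshold of 0.05. Standard errors are the log2 fold change divided by the root of F. Whether populations responded differently to 20 Gy was tested with interaction terms, over genes of the same symbol where species differed. Replicate numbers pair the libraries: names carry the same animal code, and same-numbered libraries deviated from their group means together in every comparison (lowest correlation 0.355). Libraries of different numbers reached at most 0.667, in wild cells at 12 d for 10 Gy against untreated. In C56BL6 at 12 d their highest value passed the lowest same-number value for 10 Gy against untreated (0.548 and 0.499). The same held there for passaged against untreated (0.507 and 0.492) and 20 Gy against passaged (0.513 and 0.483). Alternatives were DESeq2 1.42.0 and its size factors, no expression filter, the replicate block, all groups in 1 fit, each replicate left out and, chosen after seeing the data, wild replicates 1 and 4 summed. The scripts were tested on simulated data. Different replicate numbers of a population carry different animal codes, so by their names the replicates are separate animals. Whether this holds for wild replicates 1 and 4 at the later time was not tested. The p-values measure the spread between these libraries.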

Additional observations from a re-analysis of the deposited data

Results flagged for a closer look

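A library stood far from the other 3 of its group in 16 of 210 member and group combinations; chance flags about 1 in 20. The wild 24 h 10 Gy library of replicate 1 had 238.9 CPM of Bok, where the others had 31.62 to 65.17, and 34.22 CPM of Bcl2l2. In the same group Bcl2 was high in replicate 3, at 11.19 CPM. Wild replicate 3 was also high for Bmf at 24 h and 20 Gy (2.389 CPM), low for Bid after passage (6.63 CPM) and high for Bok after passage (58.78 CPM).

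In C56BL6 cells at 12 d and 10 Gy, replicate 1 was high for Bak1 (45.58 CPM) and Bok (44.36 CPM). Replicate 1 was low for Mcl1 at 12 d and 20 Gy (152.2 CPM), and replicate 2 was low for Bok at 24 h and 10 Gy (47.85 CPM). In A. cahirinus replicate 2 was high for Bid in untreated cells at 12 d (32.78 CPM), low for Bmf at 12 d and 20 Gy (3.977 CPM) and low for Bak1 in untreated cells at 24 h (38.85 CPM). Replicate 4 was low for Bcl2 in untreated A. cahirinus cells at 24 h (0.2734 CPM), and replicate 1 was low for Bok at 24 h and 20 Gy (18.77 CPM) and for Bad after passage (17.08 CPM).

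The change at 20 Gy at 12 d differed between A. cahirinus and C56BL6 cells by 1.93 for Bmf and -0.67 for Bcl2l1 on the log2 scale, by the interaction term. In the following cases every pair of 1 population moved one way and every pair of another the opposite way, and the difference itself was not tested. At 24 h and 10 Gy Bmf differed by 0.37 in A. cahirinus and -0.78 in wild cells. At 12 d and 10 Gy Bad differed by 0.16 in A. cahirinus and -0.33 in C56BL6 cells. Between 20 Gy and passaged cultures Bcl2 differed by 0.58 in wild, 1.33 in A. cahirinus and -0.42 in C56BL6 cells, and Bad by 0.50 in C56BL6 and -0.22 in A. cahirinus cells.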

How the results depend on the processing

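No member's log2 fold change turned direction among called values, and size factors of DESeq2 in edgeR changed none of the 29 counts of members by over 1.5 times. The replicate block gave, in A. cahirinus, 4 members at 12 d and 10 Gy, 2 for 20 against 10 Gy, 4 at 24 h and 10 Gy and 1 at 24 h and 20 Gy, in C56BL6 2 and 3 at 24 h and 10 and 20 Gy, in wild 3 at 12 d for each dose, 5 with passage, 6 for 20 Gy against passaged and 2 at 24 h and 20 Gy. For A. cahirinus minus C56BL6 it gave 5 at 12 d and 2 at 24 h, and minus wild 4 and 1. The block changed no other call than those given with the results. DESeq2 gave 1 member in A. cahirinus at 12 d and 10 Gy, at 24 h and 20 Gy and minus wild at 12 d, and in wild at 12 d 2 for each dose and 3 with passage and against passaged. One fit of all groups gave 1 in A. cahirinus at 10 Gy and, in wild, 2 for each dose and 3 with passage. Without an expression filter, 20 Gy against passaged gave 3 in A. cahirinus and 0 in wild. That setting ended 9 calls at 12 d, by edgeR adjusted p: at 20 Gy against untreated Bcl2 (0.0527) and Bad (0.0702) in C56BL6 and Bcl2 (0.0541) in A. cahirinus, with passage Bok (0.0525) in C56BL6, and against passaged Bcl2l2 (0.0596) and Mcl1 (0.145) in C56BL6, Bcl2l2 (0.104) in wild and Bcl2l1 (0.0594) and Bid (0.0531) in A. cahirinus. With wild replicates 1 and 4 summed, the 3 wild counts of 1 became 0.

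Leaving out each replicate gave, at 12 d in A. cahirinus, 0 to 2 members at 10 Gy, 1 to 4 at 20 Gy, 0 to 1 for 20 against 10 Gy, 1 to 5 against passaged and 1 to 3 with passage. In C56BL6 it gave 1 to 5 at 10 Gy, 3 to 7 at 20 Gy, 3 to 6 against passaged and 4 to 7 with passage. In wild it gave 0 at 10 Gy (0 to 0), 0 to 3 against passaged and 0 to 4 with passage. For A. cahirinus it gave 0 to 2 minus C56BL6 and 0 to 1 minus wild. Among the alternatives, the share of all genes that passed is given for the replicate block only. The counts of members from the other alternatives are therefore no result about the members. Depth limits Bcl2 in A. cahirinus, at 8 to 45 counts a library.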
